A study of Mus musculus with 4 samples.

Results

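Interferon-inducible GTPases were followed on whole-genome arrays of mouse embryonic fibroblasts (MEFs) in which the Rb gene had been left in place, deleted, or deleted and replaced. The group was chosen by gene symbol and holds the 10 genes that the array calls Gbp1, Gbp2, Gbp3, Gbp4, Gbp6, Iigp1, Iigp2, Igtp, Irgm1 and Tgtp, out of 30872 symbols on the array. They were read by 17 of its 45281 probes. Of the 10 genes, 6 gave a signal above background on at least 1 array and were analysed among 12616 genes, while Gbp1, Gbp4, Iigp1 and Tgtp were not detected on any array.

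All cells were embryonic fibroblasts of mixed FVB;129 strain with homozygous floxed Rb, grown in medium with 10% serum. Parental MEFs were mock treated, with a solution lacking TAT-Cre and with medium in place of virus. Rb-deleted MEFs were given TAT-Cre, a cell-permeable recombinase, in 2 treatments of 1 h at an interval of 3 h, and medium in place of virus. WT Rb-HA MEFs were given TAT-Cre and a retrovirus for tagged wild type Rb, and ΔCdk Rb-HA MEFs were given TAT-Cre and a retrovirus for a tagged Rb that Cdks cannot phosphorylate. By the study's methods, all were contact arrested, released for 4 hr and treated with 100 ng/ml doxorubicin, which damages DNA, for 3 hr, so the parental cells carry the drug as well; the labels do not mention it. Age of the embryos was not given in the sources used here.

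Each condition has 1 array, so no difference below has a replicate check, and no p-value was computed. The standard error over the beads of a probe (bead SE) measures only the error within an array. No array holds MEFs given TAT-Cre without the deletion, or an empty virus, so TAT-Cre treatment and loss of Rb cannot be told apart, nor can virus and the Rb it carried. All 4 arrays lay on 1 chip by their labels. Mean intensity was 336 to 346, and 35.2% to 37.0% of probes were detected (detection p-value below 0.01). Rb1 at its brighter probe gave an intensity of 543 in parental, 160 in Rb-deleted, 181 in WT Rb-HA and 170 in ΔCdk Rb-HA MEFs. The sources used here do not place that probe against the deleted part of the gene or against the Rb sequence in the virus. By immunoblot, the study reports tagged Rb protein at physiologic levels with both viruses, so this probe does not measure the replacement. All 10 listed fibroblast markers, such as the collagens Col1a1 and Col3a1, were detected.

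Interferons are secreted proteins that act through receptors, Jak kinases and Stat transcription factors to switch on defence genes. Guanylate-binding proteins (Gbp) and immunity-related GTPases (Irg) are among the most strongly induced of these: large GTPases of the dynamin superfamily and smaller relatives that assemble on the vacuoles of intracellular bacteria and parasites and help to break them open. Irgm1, Iigp2 (now Irgm2) and Igtp (now Irgm3) are the regulatory Irg proteins, which sit on the membranes of the cell itself and hold the effector Irg proteins, such as Iigp1 (Irga6) and Tgtp (Irgb6), inactive there.

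Older names on the array hide what some probes read. By its gene number, the array's Gbp6 is the gene now called Gbp7, and its Gbp1 is now Gbp2b. The gene that carries the name Gbp6 today is the array's Mpa2l, which was at background, with intensities of 32.8 to 38.8. Gbp1, Gbp2, Gbp3 and Gbp6 of the array lie together on chromosome 3, Gbp4 on chromosome 5, and Igtp, Iigp2, Irgm1 and Tgtp on chromosome 11. Tgtp has a near-identical copy, Tgtp2, from which its probes may not tell it apart.

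Promoter sequences of these genes were searched for letter patterns of elements that interferon signalling is known to use. The interferon-stimulated response element (ISRE), bound by complexes that hold Irf proteins, was searched as GAAANNGAAA or, on the other strand, TTTCNNTTTC. The gamma-activated site (GAS), an element of genes that answer to interferon-gamma, was searched as TTCNNNGAA, which reads the same on both strands. Promoter windows from RefSeq (GRCm38.p6; 250 bases before to 50 after each start site) were at hand for 8 of the 10 genes, and Gbp4 and Iigp1 were not in the table. Stretches of 60 bases around the matches are printed 5′ to 3′ on the strand of the gene, because their genes share the match while most promoters lack it, with every ISRE-type and GAS-type match in capitals.
Gbp2 (chr3:142620579-142620638, plus strand): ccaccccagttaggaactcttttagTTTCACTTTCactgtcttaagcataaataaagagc
Gbp3 (chr3:142559977-142560036, plus strand): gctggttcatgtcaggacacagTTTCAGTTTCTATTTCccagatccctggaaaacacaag
Gbp6, now Gbp7 (chr3:142530258-142530317, plus strand): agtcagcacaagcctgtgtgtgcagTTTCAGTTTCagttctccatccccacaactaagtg
Gbp1, now Gbp2b (chr3:142594685-142594744, plus strand): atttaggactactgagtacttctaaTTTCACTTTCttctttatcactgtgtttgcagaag
Irgm1 (chr11:48871421-48871480, minus strand): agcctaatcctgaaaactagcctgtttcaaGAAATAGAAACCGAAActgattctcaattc
Igtp (chr11:58199491-58199550, plus strand): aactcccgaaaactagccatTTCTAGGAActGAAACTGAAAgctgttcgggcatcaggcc
Iigp2, now Irgm2 (chr11:58214882-58214941, plus strand): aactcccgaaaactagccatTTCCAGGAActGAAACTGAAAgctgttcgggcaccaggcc
Tgtp, now Tgtp1 (chr11:48992295-48992354, minus strand): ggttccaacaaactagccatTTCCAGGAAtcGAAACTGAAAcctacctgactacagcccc

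An ISRE-type match was found in all 8 genes (8 of 9 windows), against 3.44% (1131) of all 32851 promoter windows. Gbp3 has a second window, from another start site, which held none. Gbp3 and Irgm1 each carried a pair of overlapping matches. GAS-type matches were found in 4 of the 8 genes, Gbp6, Igtp, Iigp2 and Tgtp, against 8.30% of all windows, and both patterns together occurred in 0.454% of windows. In Igtp, Iigp2 and Tgtp the GAS-type match lay right before the ISRE-type match, while in Gbp6 2 such matches lay further from it. The ISRE-type match ended 127 bases before the start site in Gbp1 and between 14 and 67 bases before it in the other 7. Igtp and Iigp2, neighbours on chromosome 11, shared a run of 61 identical bases and matched at 68.1% of 270 aligned bases, while the longest run shared by any other pair was 20 bases, between Iigp2 and Tgtp. None of the 10 dynamin and atlastin genes in the table, relatives that interferon does not induce, held either pattern. The ISRE-type match was not particular to the group, since 7 of 15 type I interferon targets with a window and 1 of 2 other inducible GTPases held it too. Matches describe letters only, and no binding was measured. Gbp1 and Tgtp, both at background on every array, carried them as well.

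**Figure D1:**
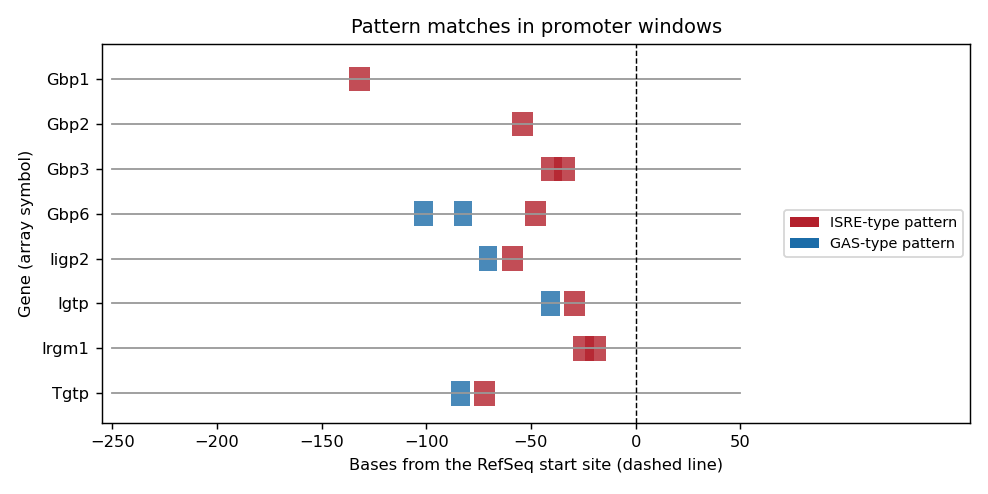
Map of pattern matches in the RefSeq promoter windows of the 8 genes with a window; the x axis gives bases from the start site (dashed line), grey lines the window, red boxes ISRE-type and blue boxes GAS-type matches. Every gene carries a red box before the start site, and in Iigp2, Igtp and Tgtp a blue box stands right before it.

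The main pattern was the same in 5 of the 6 analysed genes. Signal of Gbp2, Gbp3, Gbp6, Igtp and Iigp2 was highest in parental MEFs, lower in Rb-deleted MEFs, about as low in WT Rb-HA MEFs, and lowest in ΔCdk Rb-HA MEFs. Irgm1 was likewise highest in parental and lowest in ΔCdk Rb-HA MEFs at 2 of its 3 probes, but not at its brightest probe, which was nearly level.

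Among the Gbp genes, Gbp2, whose protein is recruited to pathogen vacuoles, had an intensity of 3261 in parental, 671 in Rb-deleted, 682 in WT Rb-HA and 351 in ΔCdk Rb-HA MEFs at its probe at transcript position 2154. Signal was thus far higher on the parental array than on any other, and all 4 values stood well above the background, whose median intensity was 35.9 to 36.9. On the log2 scale, after background correction and quantile normalization, the differences from parental were -2.29 (bead SE 0.05), -2.25 (0.04) and -3.23 (0.04), which is 4.88-fold, 4.77-fold and 9.36-fold lower. The probe of Gbp2 at position 2236 was detected on the parental array alone, at an intensity of 59.5. Where a probe was not detected on an array, the fold is a lower bound, taken against its own normalized value there or, if that is higher, the dimmest detected probe of that array. Such a bound makes no allowance for the bead SE. By that bound, Gbp2 at position 2236 was at least 1.16-fold, 1.07-fold and 1.12-fold lower than in parental MEFs, so this dim probe says little of the size. A further Gbp2 probe, at position 69, was at background, with intensities of 34.4 to 42.4.

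Gbp3, another guanylate-binding protein, has 2 probes, and both were detected on all 4 arrays. At position 2304 the intensity was 798 in parental, 164 in Rb-deleted, 172 in WT Rb-HA and 85.4 in ΔCdk Rb-HA MEFs. At position 2060 it was 706, 156, 180 and 89.7 in the same order. At both probes Rb-deleted and WT Rb-HA MEFs lay close together, with ΔCdk Rb-HA MEFs below them. Log2 differences from parental were -2.40 (bead SE 0.07), -2.33 (0.06) and -3.59 (0.09) at position 2304, and -2.32, -2.09 and -3.32 at position 2060. In ΔCdk Rb-HA MEFs this came to a 12.0-fold lower signal.

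Gbp6 of the array, today's Gbp7, gave a weaker signal of the same order. Its probe at position 2639 had an intensity of 159 in parental, 70.1 in Rb-deleted, 63.7 in WT Rb-HA and 51.5 in ΔCdk Rb-HA MEFs, where it was not detected. Differences from parental were -1.51 (bead SE 0.11) in Rb-deleted and -1.79 (0.14) in WT Rb-HA MEFs on the log2 scale, and the signal in ΔCdk Rb-HA MEFs was at least 4.21-fold lower. Its other probe, at position 2915, passed the detection threshold on the parental array alone, with an intensity of 60.2. By the bound it was at least 1.19-fold, 1.09-fold and 1.14-fold lower on the other arrays. With a parental bead SE of 0.14 on the log2 scale, this dim probe also says little of the size.

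Igtp (Irgm3), a regulatory Irg protein found on the endoplasmic reticulum and lipid droplets, had an intensity of 865 in parental, 214 in Rb-deleted, 203 in WT Rb-HA and 94.6 in ΔCdk Rb-HA MEFs. Its log2 differences from parental were -2.10 (bead SE 0.07), -2.19 (0.08) and -3.52 (0.12). Iigp2 (Irgm2), a regulatory Irg protein found on the Golgi, had an intensity of 928, 284, 286 and 127 on the arrays in the same order. The differences were -1.74 (0.05), -1.72 (0.06) and -3.05 (0.08), so both genes were lower with ΔCdk Rb-HA than on either of the other TAT-Cre arrays.

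Irgm1, the regulatory Irg protein linked to autophagy and mitochondria, was read by 3 probes that disagreed. At position 1826 the intensity was 1230 in parental, 347 in Rb-deleted, 403 in WT Rb-HA and 220 in ΔCdk Rb-HA MEFs, with log2 differences from parental of -1.84 (bead SE 0.06), -1.61 (0.05) and -2.54 (0.06). At position 273 it was 118, 60.4, 73.3 and 55.7, with differences of -1.33 (0.16), -0.96 (0.16) and -1.56 (0.18). These 2 probes were highest in parental and lowest in ΔCdk Rb-HA MEFs, as in the other genes. At position 273, however, ΔCdk Rb-HA lay only -0.22 (0.20) from Rb-deleted MEFs. The third probe, at position 2014, was the brightest and by the rule for several probes stood for the gene: its intensity was 6700, 4901, 5018 and 6024, and its differences of -0.39 (0.05), -0.38 (0.08) and -0.10 (0.07) did not reach 1.6-fold on any array.

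The probe at position 2014 also differs in its letters. The first 30 bases of the probes at 2014 and 1826 are printed to show this, with capitals for bases that lie in a 15-base stretch found in 5 or more promoter windows.
Irgm1 probe at 2014: cgTGATGGCTCACAACCATCCGTAgTGAGA
Irgm1 probe at 1826: catctcccctgtctcgattctaatgcattg
Of the 50 bases of the probe at 2014, 45 lay in such stretches, and 107 of the 32851 promoter windows shared 15 bases with it on either strand. The other 16 probes of these genes each shared 15 bases with 0 to 3 windows and had no base in such stretches. In addition, 5 other probes of the array shared 15 bases with the probe at 2014. What part this repeated sequence has in the level signal was not tested.

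**Figure D2:**
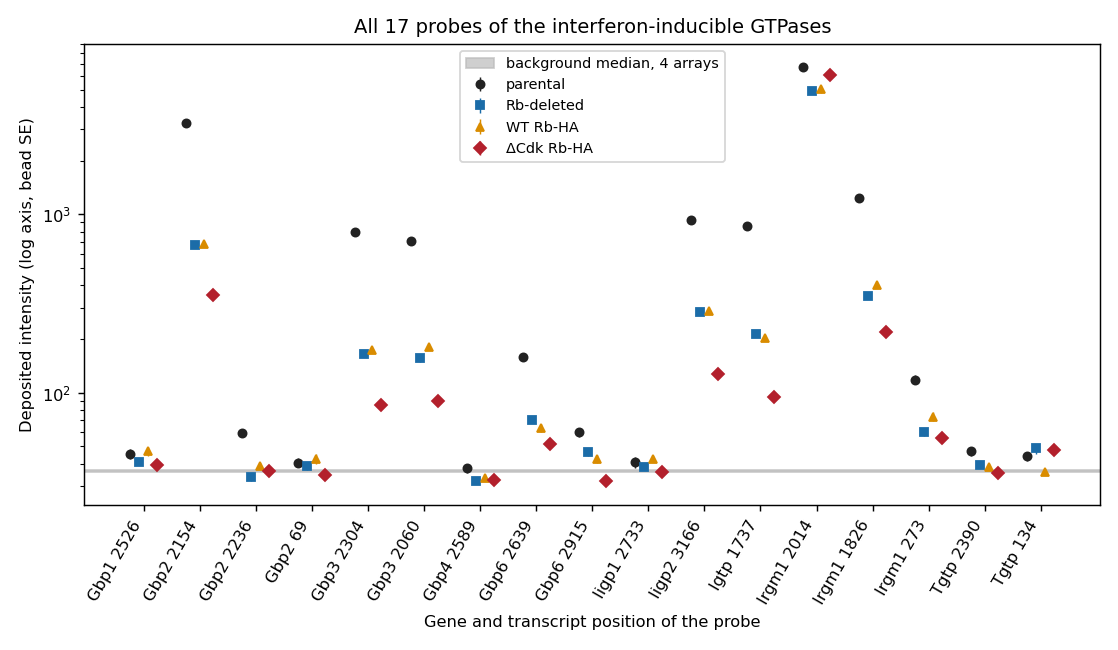
Deposited intensity (log axis) of the 17 probes on the 4 arrays, with the bead standard error, which is mostly smaller than the symbol; x labels give the gene and the transcript position of the probe, and the grey band spans the background medians of 35.9 to 36.9. Black points (parental) lie highest and red diamonds (ΔCdk Rb-HA) lowest for Gbp2 2154, Gbp3, Gbp6, Iigp2, Igtp and Irgm1 1826, while Irgm1 2014 stays between 4901 and 6700.

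The 4 genes that were not detected stayed close to the background on every array. Intensities were 39.0 to 46.8 for Gbp1, 32.0 to 37.5 for Gbp4 and 35.9 to 42.5 for Iigp1, an effector that coats parasite vacuoles. The 2 probes of Tgtp, another such effector, lay at 35.5 to 46.9 and 35.8 to 48.7, and 1 of them has no gene number in the array's annotation. Of the 10 genes, those read above background were thus Gbp2, Gbp3, Gbp6 and the 3 regulatory Irg genes, and a difference between conditions in the 4 others was not detectable. That division holds only within the 10, since Ifi47, an Irg gene outside them, was detected on all 4 arrays.

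Compared to parental MEFs, 5 of the 6 analysed genes were past 1.6-fold lower in Rb-deleted MEFs, where 2.98% of all 12616 analysed genes were. In WT Rb-HA MEFs 5 of 6 were, against 2.46% of all genes, and in ΔCdk Rb-HA MEFs 5 of 6, against 3.3% of all genes. These were the same 5 genes each time, past 1.6-fold lower on all 3 TAT-Cre arrays, as were 1.5% of all genes. The exception was Irgm1, and it joined the others on all 3 arrays when read by its probe at 1826, a choice made after the values had been seen. Median log2 differences of the 6 genes were -1.92, -1.99 and -3.14, beside 0.02, 0.01 and -0.01 over all genes. Because 5 of the 6 genes were detected on all 4 arrays, only Gbp6 passed the detection filter without a signal in ΔCdk Rb-HA MEFs. All 3 differences are taken against 1 parental array, so an error in that array would enter all of them.

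Ranked from the lowest log2 difference among all 12616 genes, Gbp3 stood at 7 in Rb-deleted, 12 in WT Rb-HA and 8 in ΔCdk Rb-HA MEFs. Gbp2 stood at 10, 15 and 14, and Igtp at 19, 20 and 9. Iigp2 stood at 33, 41 and 18, and Gbp6 at 54, 36 and 38. Irgm1 by its brightest probe stood at 1223, 1109 and 4800, far from the rest.

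**Figure D3:**
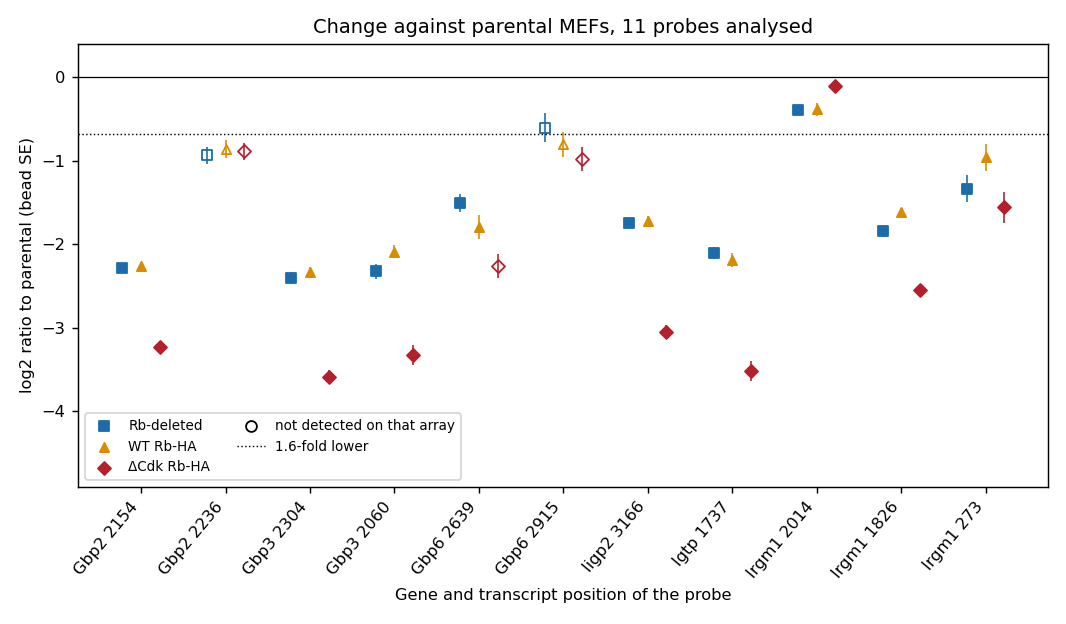
Log2 ratio to parental MEFs of the 11 probes analysed, by gene and transcript position, with the bead standard error; blue squares are Rb-deleted, orange triangles WT Rb-HA and red diamonds ΔCdk Rb-HA MEFs, open symbols mark probes not detected on that array, and the dotted line is 1.6-fold lower. At Gbp2 2154, both Gbp3 probes, Iigp2, Igtp and Irgm1 1826 the blue and orange symbols lie close together and the red lie lower, while Irgm1 2014 lies above the dotted line on all 3 arrays.

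MEFs with wild type Rb put back lay close to Rb-deleted MEFs in these genes. Between WT Rb-HA and Rb-deleted MEFs the log2 difference was 0.03 for Gbp2 (bead SE 0.06), 0.07 for Gbp3 (0.08), -0.08 for Igtp (0.09) and 0.02 for Iigp2 (0.06), each within its bead SE at the probe that stands for the gene. Other probes gave larger differences, of 0.23 (0.09) for Gbp3 at position 2060. Gbp6 gave -0.28 (0.15), and Irgm1 gave 0.01 (0.08) at position 2014, 0.24 (0.06) at position 1826 and 0.38 (0.18) at position 273. None of the 6 genes was past 1.6-fold lower, where 0.484% of all genes were, and their median was 0.02.

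The ΔCdk Rb-HA array stood below both other TAT-Cre arrays. Against WT Rb-HA MEFs, which differ in the form of Rb that the virus carried, the log2 difference was -0.97 for Gbp2 (bead SE 0.05), -1.26 for Gbp3 (0.09), -1.33 for Igtp (0.13) and -1.33 for Iigp2 (0.09). These 4 of the 6 genes were past 1.6-fold lower, against 1.01% of all genes, and the median of the 6 was -1.12. With the mean of its detected probes, the dim one at 2236 included, Gbp2 was at -0.50 and lost its call. Gbp6 was at least 1.22-fold lower. For Irgm1 the direction depended on the probe: it was 0.28 (0.09) at position 2014 but -0.93 (0.06) at position 1826 and -0.60 (0.20) at position 273.

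Against Rb-deleted MEFs, ΔCdk Rb-HA MEFs had log2 differences of -0.94 for Gbp2 (bead SE 0.06), -1.19 for Gbp3 (0.10), -1.42 for Igtp (0.13) and -1.31 for Iigp2 (0.09). Including Gbp6, 5 of the 6 genes were past 1.6-fold lower, against 1.95% of all genes, with a median of -1.06, but the bound for Gbp6 was only 1.48-fold, and Gbp2 was at -0.45 with the mean of its detected probes. Irgm1 gave 0.29 (0.07) at position 2014, -0.70 (0.07) at position 1826 and -0.22 (0.20) at position 273. Gbp2, Gbp3, Igtp and Iigp2 were past 1.6-fold lower than parental on all 3 TAT-Cre arrays and past 1.6-fold lower in ΔCdk Rb-HA MEFs than in both others, as were 0.238% of all genes. Each of these 4 differences was many times its bead SE, but how much cultures of 1 condition differ was not measured.

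**Figure D4:**
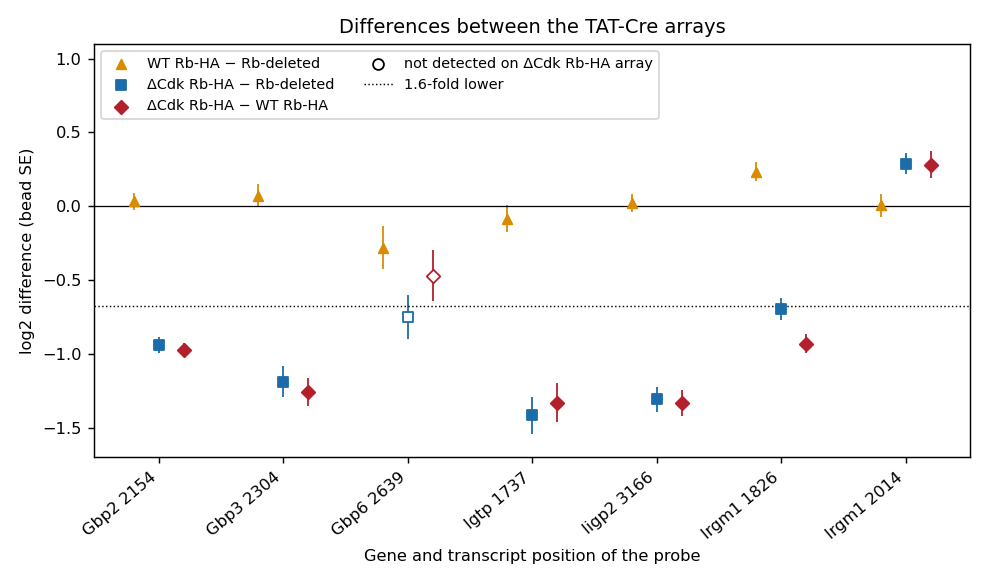
Log2 difference between pairs of TAT-Cre arrays for the probe that stands for each analysed gene and for Irgm1 1826, with the bead standard error; orange triangles are WT Rb-HA minus Rb-deleted, blue squares ΔCdk Rb-HA minus Rb-deleted and red diamonds ΔCdk Rb-HA minus WT Rb-HA, and open symbols mark the probe that ΔCdk Rb-HA MEFs left at background. Orange symbols lie between -0.28 and 0.24, and blue and red symbols lie below 0 for every probe but Irgm1 2014.

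Other GTPases induced by interferon were read the same way. A list of 12 holds the array's Gbp6 once more, as Gbp7; the 11 others are on the array and 6 of them were analysed. Ifi47, Gvin1 and Mx2 were detected on all 4 arrays, and these 3 were past 1.6-fold lower than parental on each of the 3 TAT-Cre arrays. The other 3, Gbp5, Mx1 and Irgb10, were detected on the parental array alone and passed the filter through it, so their values past 1.6-fold are set by background readings and are not counted here. Ifi47 (Irg47), another Irg protein, had an intensity of 626 in parental, 133 in Rb-deleted, 137 in WT Rb-HA and 81.5 in ΔCdk Rb-HA MEFs, and log2 differences from parental of -2.41, -2.38 and -3.35. Gvin1, a very large inducible GTPase, gave -2.40, -2.20 and -3.17, and Mx2, an antiviral GTPase of the dynamin superfamily, gave -1.56, -1.83 and -3.07. Irgb10, an effector Irg, was nearest to 0 but was detected on the parental array alone, so its signal was at least 1.24-fold, 1.14-fold and 1.19-fold lower, bounds that do not reach 1.6-fold. Its intensity was 61.9 in parental MEFs and 38.5 to 44.7 in the others.

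Relatives outside the interferon response stood apart from these. Dynamins, mitofusins and atlastins share the GTPase fold of the Gbp proteins and remodel membranes, and 8 array symbols for 7 of 10 listed genes were analysed. None was past 1.6-fold lower on any of the 3 arrays, and their median log2 differences from parental were -0.03, -0.10 and 0.02. The lowest were Atl2, at -0.43, -0.30 and -0.26, Opa1, near background with intensities of 53.2 to 63.2, and Dnm1l, at -0.14, -0.13 and -0.17, and the highest was Mfn1, at 0.08, 0.23 and 0.10. Genes of autophagy and of vacuoles, with which Irg and Gbp proteins work, were likewise near 0: 0 of 16 were past 1.6-fold lower on any array, with medians of -0.13, -0.04 and 0.00. Among them Atg3, which helps to attach the ubiquitin-like proteins needed to place Irg proteins on vacuoles, was the lowest, at -0.48, -0.36 and -0.16, and Map1lc3a was the highest, at 0.67, 0.48 and 0.44.

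No listed interferon gene was read above background. Of 9 listed ligands, among them Ifnb1 and Ifng, 8 were on the array and 0 were detected on any array. Among genes of interferon signalling, Usp18, an inducible brake on the type I receptor, and the transcription factors Stat2 and Irf9 were past 1.6-fold lower than parental on all 3 TAT-Cre arrays. Log2 differences from parental were -2.28, -2.21 and -3.98 for Usp18, -1.05, -1.02 and -2.12 for Stat2, and -1.01, -1.10 and -2.08 for Irf9. The receptor chains Ifnar2, Ifngr1 and Ifngr2 lay between -0.35 and -0.01 on the 3 arrays, and Socs3, a feedback inhibitor, was the highest of the list at -0.11, -0.08 and 0.03.

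Target genes were listed by the interferon and the kind of site held to lead their response, a split not tested here. Of the type I targets with a promoter window, 7 of 15 held the ISRE-type pattern, and the interferon-gamma list was not searched. Differences between the lists below are therefore not differences between sites. Of 18 analysed targets led by type I interferon and the ISRE, 17 were past 1.6-fold lower on each of the 3 arrays, with median log2 differences of -2.01, -2.03 and -2.96. These include background readings of targets not detected on every array. Over the 14 detected on all 4 arrays, 13 were past 1.6-fold lower on each, with medians of -2.02, -2.03 and -3.14. The lowest were Ifit3, at -2.75, -2.64 and -4.30, Rsad2, at -2.31, -3.36 and -3.87, and Oasl2, at -2.26, -2.48 and -4.21, all antiviral proteins, and the exception was the DNA sensor Zbp1, at -0.55, -0.55 and -0.47. Of 9 analysed targets led by interferon-gamma and GAS, 6 were detected on all 4 arrays, and of these 4 were past 1.6-fold lower in Rb-deleted, 5 in WT Rb-HA and 6 in ΔCdk Rb-HA MEFs, with medians of -0.82, -0.93 and -1.20. Of the others, Cxcl9 and Fcgr1 were detected on the parental array alone. The chemokine Cxcl9 was the lowest of the list, at an intensity of 96.3 against 45.2 to 50.9 on the others. Next came the proteasome subunit Psmb9, at -0.83, -1.17 and -1.45, and the peptide transporter Tap2, at -1.20, -1.13 and -1.07, and H2-Ab1 was the highest, near background with intensities of 50.8 to 65.5. From WT Rb-HA to ΔCdk Rb-HA MEFs the median differences were -0.96 over the 14 type I targets detected on all 4 arrays and -0.26 over the 6 such interferon-gamma targets. For the 6 GTPases the median was -1.12, with Gbp6 included although it was not detected in ΔCdk Rb-HA MEFs. Usp18 stands in both the signalling and the type I list, and Irf1 in both the signalling and the interferon-gamma list.

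Genes whose pattern was most like that of the GTPases were sought over all 12616 genes, by the root mean square distance of their 3 log2 differences from the medians of the 6. Nearest outside the group were Irf7, at a distance of 0.15, Ifih1, at 0.19, Parp14, at 0.22, LOC100038882, which by its gene number is Isg15, at 0.23, and Mx2, at 0.23. Each of the 5 is itself an interferon-induced gene of the lists above. Irf7, for example, gave -1.77, -1.84 and -3.29. Ifih1 was not detected in ΔCdk Rb-HA MEFs, at an intensity of 46.3, so its distance rests in part on a background reading.

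**Figure D5:**
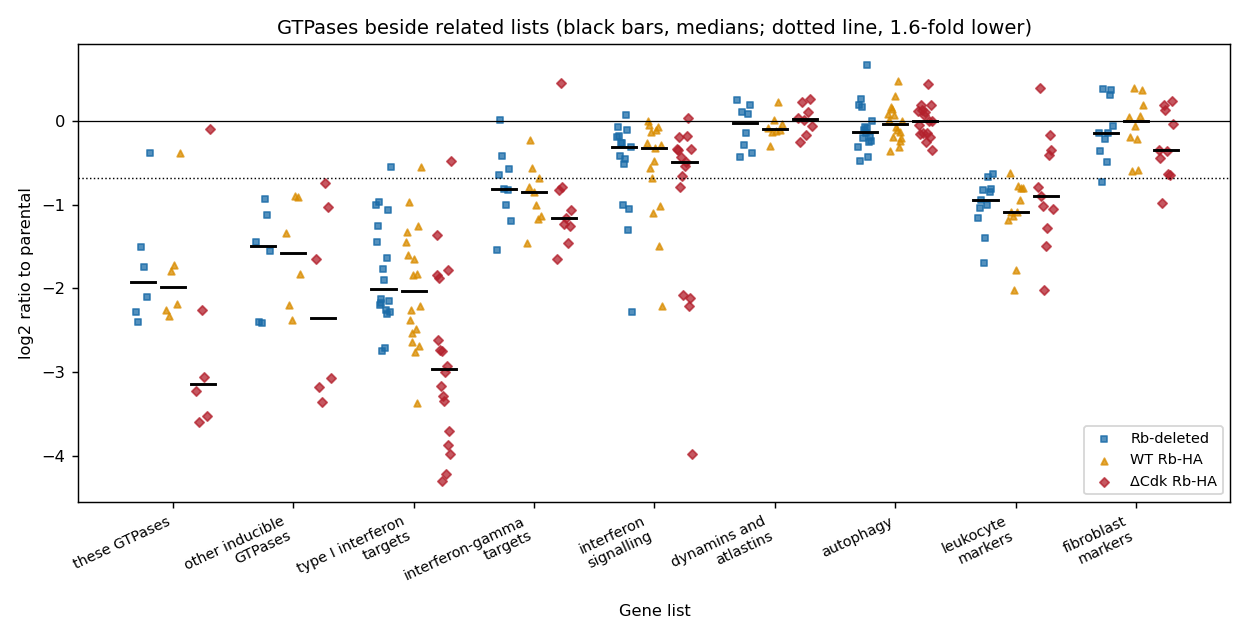
Log2 ratio to parental of each analysed gene, by list; blue squares are Rb-deleted, orange triangles WT Rb-HA and red diamonds ΔCdk Rb-HA MEFs, genes at background on an array are included, black bars are medians and the dotted line is 1.6-fold lower. Bars of the GTPases (-1.92, -1.99 and -3.14) and of the type I targets (-2.01, -2.03 and -2.96) lie lowest, and those of the dynamins and atlastins and of the autophagy genes lie near 0.

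Markers of macrophages and other leukocytes, which express these GTPases strongly, were also lower on the TAT-Cre arrays. Of 12 listed markers 9 were detected, under 11 array symbols, and Ptprc, Fcer1g and Itgam were at background on all 4 arrays. Past 1.6-fold lower than parental were 9 of the 11 symbols in Rb-deleted, 10 in WT Rb-HA and 7 in ΔCdk Rb-HA MEFs, with median log2 differences of -0.94, -1.08 and -0.90. The summed normalized signal of the 11 was 10958 in parental, 5792 in Rb-deleted, 5318 in WT Rb-HA and 7012 in ΔCdk Rb-HA MEFs. Emr1, a surface protein of mouse macrophages, was the lowest, at -1.69, -2.02 and -2.02, then Laptm5, at -1.40, -1.78 and -1.49, and Lcp1, at -1.01, -1.09 and -1.28, and Cd53 was the highest, at -1.04, -0.62 and 0.39. From WT Rb-HA to ΔCdk Rb-HA MEFs the median difference of the 11 symbols was 0.29, with 3 below 0 and 0 past 1.6-fold lower, while the GTPase median was -1.12. The listed marker lysozyme entered as Lyz, Lyz2 and Lyzs, at 0.37, 0.78 and 0.45 in this comparison. It thus weighs more than once in these medians, counts and sums. The part of leukocytes in the lower GTPase signal was not tested, and fewer cells of a type cannot be told apart from less RNA per cell in such bulk samples.

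Markers of other cell types were mostly within 1.6-fold of parental. Of the 10 fibroblast markers 1 was past 1.6-fold lower in Rb-deleted, 0 in WT Rb-HA and 1 in ΔCdk Rb-HA MEFs, with medians of -0.15, -0.01 and -0.35. Both calls were those of Col3a1, at -0.73, -0.60 and -0.98, and from WT Rb-HA to ΔCdk Rb-HA MEFs Pdgfrb was lower, at -0.70. Of 7 lymphocyte markers on the array Cd3e alone was detected, with intensities of 58.3 to 66.2, and of 4 endothelial markers 0 were detected. The 3 epithelial markers detected, Cdh1, Krt8 and Krt18, were dim, with intensities of 44.6 to 120.0, and 0 of them were past 1.6-fold lower.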

How the data were processed

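Total RNA of the 4 cultures was hybridised to MouseWG-6 v2.0 BeadChips. The authors deposited, for each probe and array, the mean intensity over its beads without normalization, a detection p-value, the bead standard error, also an intensity, and the bead count (median 44). Array processing in the study's methods refers to an earlier publication, and its normalization is not given in the sources used here. Intensities were background corrected by normexp from the detection p-values (offset 16), quantile normalized and put on log2 with limma 3.58.1 in R 4.3.3. Later steps used Python 3.11.15, numpy 2.4.6 and pandas 2.3.3. A probe was analysed if its detection p-value was below 0.01 on at least 1 array, and the brightest probe stood for its gene (17746 probes, 12616 genes). Symbols of 34 probes that had been turned into dates were restored by gene number, and names came from RefSeq (GRCm38.p6). The 1.6-fold filter is the study's. Bead standard errors were carried through the normalization and combined over the 2 arrays. With 1 array per condition no test was possible, and the number of arrays limits the precision.

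Genes named are all 10 GTPases, Rb1, the 3 lowest and the highest of each list by mean log2 difference, the 5 nearest in pattern, and those a comparison needs; an item of the signalling list is not reported here, nor are that list's counts. The GTPases and lists were chosen with earlier results of these data known. Alternatives changed the background correction, offset, normalization, detection filter, probes per gene, fold and use of the bead standard error. Calculations were tested on simulated data. Sample columns left unused: 0.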

Additional observations from a re-analysis of the deposited data

How the results depend on the processing

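Of 282 log2 differences of the 6 GTPases recomputed, 226 stayed within about 2 bead standard errors of the value reported and 56 moved. Many of the 226 could not move, so their number is no measure of stability. The detection filters act after normalization and gave 36 and 30 of them. Reading Irgm1 at position 1826, chosen after seeing the data, left 30 values of the other genes as they were. Genes with 1 analysed probe could not move with the mean of probes. Of the values past 1.6-fold, 0 changed sign but 5 dropped below it, all between TAT-Cre arrays. With the mean of all detected probes, which averages in its dim probe, Gbp2 was at -0.45 in ΔCdk Rb-HA against Rb-deleted MEFs and at -0.50 against WT Rb-HA MEFs. Gbp6 in ΔCdk Rb-HA against Rb-deleted MEFs was at -0.45 without background correction, -0.39 with an offset of 50 and -0.56 with the mean of probes. Another 8 values passed 1.6-fold only under an alternative, all of them for Irgm1, whose differences of ΔCdk Rb-HA from the other TAT-Cre arrays changed sign with the mean of probes (-0.21 and -0.42) and at position 1826 (-0.70 and -0.93). The other 2 sign changes, with median scaling, were at 0.03 or less. Medians against parental, for Rb-deleted, WT Rb-HA and then ΔCdk Rb-HA MEFs, were -1.77, -1.80 and -2.86 with an offset of 50, -1.68, -1.64 and -2.55 with the mean of all detected probes, and -1.74, -1.72 and -2.54 over the 11 probes read one by one. Without background correction they moved to -1.84 in WT Rb-HA MEFs and to -2.97 in ΔCdk Rb-HA MEFs, and with detection required on all 4 arrays, which leaves 5 genes, in Rb-deleted (-2.10) and WT Rb-HA (-2.19) MEFs. The median difference of ΔCdk Rb-HA from Rb-deleted MEFs was -0.87, -0.83 and -0.75, and that from WT Rb-HA MEFs -0.92, -0.87 and -0.93, with the offset of 50, the mean of probes and single probes. Of the 11 probes, 9, 10 and 10 were past 1.6-fold lower than parental, and 9 on all 3 arrays. The share over all probes was not computed. These counts, and the medians over single probes, take in Gbp2 at position 2236 and Gbp6 at position 2915. Both were detected on the parental array alone, with bounds of 1.07-fold to 1.19-fold, so their values past 1.6-fold are set by background readings. With Irgm1 read at position 1826, chosen after seeing the data, 6 of 6 genes were past 1.6-fold lower on each array. The count of other inducible GTPases was 3 of 3 with detection on all 4 arrays. Over all 6 it was 4 without background correction, with an offset of 50 or at 2-fold. That of interferon-gamma targets was 3 of 9 at 2-fold, Cxcl9 among them. Both of these wider counts take in genes detected on the parental array alone, so they rest in part on background readings. Causes were not tested, apart from the fewer genes or probes in each count. No paired analysis was possible because each condition has 1 array and no replicate numbers. Probes near background, such as those of Gbp6 in ΔCdk Rb-HA MEFs, give only bounds.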
